A study of Mus musculus with 32 samples.

Results

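Livers of Mettl14 knockout (Mettl14 KO) and floxed control (Flox control, here flox) mice were compared after sham surgery. The measure was each transcript's share of a library pulled down with an antibody against N6-methyladenosine (m6A), relative to its share of the input library. Of 55421 genes in the deposited table, 24803 had any count, and the comparison below covers the 2045 genes (3.69% of the table) whose mean input level reached 50 CPM (the unit in which the counts of every library sum to the same total) in both sham groups. The rule used only the input level of each group, not the difference between the genotypes. Of these 2045 genes, 1956 had a symbol, 1928 were protein coding and 15 were long non-coding RNAs, and all 2045 were among the 14328 genes tested.

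The series measured liver RNA of 16 mice in 32 libraries, with 4 mice in each of 4 groups by genotype and surgery (partial hepatectomy or sham). The 4 sham flox animals were 77, 77, 71 and 73 days old, the 4 sham KO animals 73, 73, 73 and 72 days, and the hepatectomised animals 72 or 73 days. Every liver was sequenced as an input library, for which a stranded mRNA kit was used, and as an IP library, made with a different kit from RNA broken into short fragments and pulled down with the anti-m6A antibody. The labels do not name the Cre line or the cells in which Mettl14 was removed, and all IP libraries differ from all input libraries in kit and fragmentation, so only differences between genotypes in the IP/input value were read. That value is log2 of (IP CPM + 1) over (input CPM + 1) in one animal. Above 0 the transcript takes a larger share of the IP library than of the input library.

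METTL14 is the RNA-binding partner of the methyltransferase METTL3, and together they form the core of the complex that writes m6A on nascent mRNA. The mark is concentrated near stop codons and in long internal exons, and YTH-domain reader proteins that bind it are known to direct decay, translation and splicing of the marked transcripts. In liver, most mRNA by mass encodes secreted plasma proteins and metabolic enzymes of hepatocytes. The amount per cell is not measured, because CPM values are shares of a library. In bulk liver, fewer cells of a type and less RNA per cell cannot be told apart.

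The sham input libraries held 8177746 to 12360451 counts and 4176 to 9354 genes with at least 10 counts, and the IP libraries 11016445 to 24297713 counts and 8597 to 16846 such genes. The deepest IP library, from KO animal 4, had the most detected genes, and the input of KO animal 3 had the most among inputs. The 2045 genes held 81.3% to 83.7% of counts in flox inputs, 80.5% to 84.3% in KO inputs, 79.5% to 81.3% in flox IP and 73.3% to 79.5% in KO IP. Mettl14 was listed at 0 in all 8 sham inputs, where 3 counts would be 0.243 to 0.367 CPM, so the inputs do not check the genotype labels. Its IP counts were 0, 124, 0 and 86 in flox animals and 0, 38, 0 and 52 in KO animals, and the groups overlapped. All 12 hepatocyte markers, such as Alb and Hnf4a, were among the 2045 genes, and their summed level was 67620 to 77198 CPM over the 8 inputs.

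Input levels were the less steady side of the ratio. The median coefficient of variation over the 2045 genes was 66.9% in flox inputs and 61.5% in KO inputs, against 30.8% and 35.3% in IP. In 564 genes at least 1 of the 8 inputs was listed at 0, with 180 such genes in flox animal 2 and 0 in KO animal 3. At least 1 IP library was at 0 for 25 genes. Only 1224 genes had at least 10 counts in each of the 16 libraries. The genes just inside the limit, ENSMUSG00000030335, ENSMUSG00000081788 and ENSMUSG00000090213, had 50.04 to 50.15 CPM in their lower group and KO minus flox differences of 0.43, 0.21 and -0.17. Just outside it, Papola (49.98 CPM), Emilin1 (49.99 CPM) and Cldn14 had differences of -1.74, 5.15 and -1.11.

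Across all 2045 genes, sham KO and sham flox livers had nearly the same typical IP/input value. Each library is scaled to its own total, so this median cannot show a change in m6A shared by all transcripts. Its median over genes was -0.05, -0.01, -0.03 and 0.07 in the 4 flox animals and -0.01, 0.05, -0.04 and -0.03 in the 4 KO animals. The groups overlapped, and the median within-group SD of a gene was 1.33 in flox and 1.25 in KO animals. The KO minus flox difference had a median of -0.05, with quartiles of -0.80 and 0.68. Among the 1224 genes with at least 10 counts everywhere the median was 0.01, with quartiles of -0.49 and 0.57. The difference was at least 1 on the log2 scale in 792 genes (38.7%), 376 with the KO mean higher and 416 with it lower, and in only 46 of them did the animals of the groups not overlap.

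Where the middle of this distribution lies depends on how libraries are scaled. In the edgeR fit with TMM factors, the median log2 difference was -0.33 over the 2045 genes and -0.24 over all genes tested. It was 0.07 with library totals alone, -0.21 with upper-quartile factors and 0.05 with DESeq2 size factors. CPM scaled by TMM moved the per-animal median from -0.05 to -0.43. A shift of that size in a single gene or a list median is therefore no larger than the scaling choice. Differences below are read against these medians, and list medians that change sign with the scaling are named as such.

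In the edgeR test with Benjamini-Hochberg adjustment over 14328 genes, 1 of the 2045 genes had a lower IP/input value in KO livers and 0 had a higher one. In simulated counts with the spread of these libraries, the test recovered 17% of genes given a log2 change of 4. A gene not called may therefore still differ. The share called among all genes tested was 0.0209% (3 genes, all lower). The other 2 called genes, Zfp62 and Eef1d, lay outside the set because they were listed at 0 or 1 count in the flox inputs, which leaves their ratio without a base. At an unadjusted p under 0.05 there were 45 of the 2045 genes (2.20%), 5 higher and 40 lower, against 14.8% of all genes tested. DESeq2 called 7 of the 2045 genes: Btg2, Gstm3, Ly6e and Egr1 higher, and Ugt1a1, Mup7 and Mup11 lower. DESeq2 did not call Serpina3k, and it called 2483 of all genes tested (17.8% of those with an adjusted p). With the fit restricted to the 16 sham libraries, edgeR called Mup11 and not Serpina3k. Leaving out 1 animal gave 1 to 4 calls in edgeR, Serpina3k among them each time, with 2 calls without flox animal 1, flox animal 2 or KO animal 1 and 4 without flox animal 4.

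Because the input and IP library with one number come from the same animal, the edgeR fit was also run with the animal as a block, and it called 11 of the 2045 genes, all lower (all genes tested: 12, or 0.0838%). These were Serpina3k, Serpina1e, Mup3, Apoa1, Apob, mt-Nd2, mt-Nd4, mt-Nd5 and mt-Cytb, together with Gm10925 and ENSMUSG00000100131, nuclear copies of mitochondrial sequence that share reads with the mitochondrial genes. A limma fit on the per-animal ratios, which also keeps the pairing, called 0 of the 2045 genes. Serpina3k was the 1 gene called both with and without the block.

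Serpina3k, a member of the mouse serpin A3 cluster of secreted protease inhibitors related to human alpha-1-antichymotrypsin, fell. It lies on chromosome 12 at chr12:104338486-104346144, on the plus strand in the coordinates of the table. Its IP/input value was 0.88, 0.57, 0.54 and 0.54 in flox animals (0.63 ± 0.16, SD, n = 4) and -0.47, 0.06, 0.01 and -1.61 in KO animals (-0.50 ± 0.78, SD, n = 4). Every KO value lay below every flox value, and KO animal 4 was lowest. The difference of means was -1.14 (2-sided exact permutation p = 0.0286, the smallest that 4 against 4 can give), and in edgeR it was -1.35 ± 0.27 (SE), adjusted p = 0.0308.

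The Serpina3k difference lay on the IP side. Its IP level was 21793 ± 1973 CPM in flox livers and 10086, 13325, 11530 and 3909 CPM in the 4 KO livers (9712 ± 4090, SD, n = 4), while its input level was 14093 ± 1887 CPM and 12549 ± 1105 CPM. The IP groups did not overlap. In edgeR the IP part fell by 1.23 (adjusted p = 0.000239, lost in DESeq2 at 0.114) and the input part was 0.12 (adjusted p = 0.996). The call was kept in each fit that left out 1 animal, with log2 differences of -1.61 to -1.13 and adjusted p of 0.0017 to 0.0387. It was also kept without the 2 flox animals aged 77 days (-1.24, adjusted p = 0.0421). It was lost with library totals (adjusted p = 0.219), upper-quartile factors (0.177), DESeq2 (0.265), the 2045 genes alone (0.527), the 16 sham libraries alone (0.0715) and limma on ratios (0.932). Relative to the median of the 2045 genes the difference was between -1.18 and -0.83 in all 18 fits.

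**Figure D1:**
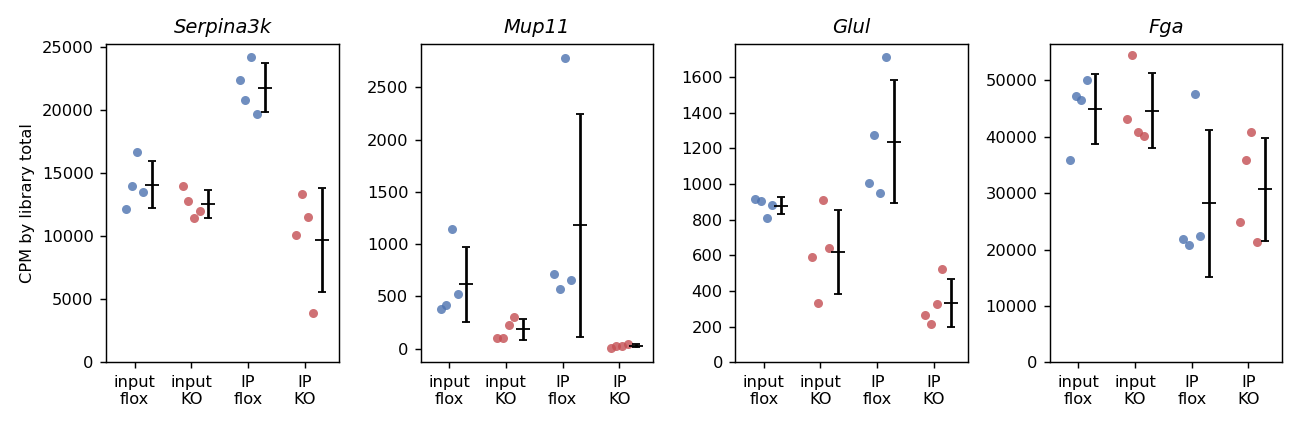
CPM by library total (vertical axis) of Serpina3k, Mup11, Glul and Fga in the 4 sham flox (blue) and 4 sham KO (red) animals, for input and IP libraries; each point is 1 library and the bars are the mean ± SD of 4. Serpina3k IP levels were 9712 CPM on average in KO and 21793 CPM in flox animals with input levels of 12549 and 14093 CPM.

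Animals of the groups did not overlap in 50 of the 2045 genes (2.44%, against 2.85% of all genes tested): 27 genes had all 4 KO values above all 4 flox values (1.32%, against 1.84% of all genes tested), and 23 had them below (1.12%, against 1.01%). With 4 against 4 animals, random labels leave a gene without overlap with a probability of 0.0286. The shares are near the background and near that value, so the count by itself says nothing particular about well expressed genes or genotype. With TMM-scaled CPM the split turned to 9 higher and 60 lower, in which 9 of the 27 and 23 of the 23 genes were kept (all genes tested: 1.47% higher and 1.44% lower). Of the 50 genes, 46 had at least 10 counts in each of the 16 libraries. The genes described below were taken from those with the largest differences, and none but Serpina3k was called in edgeR with or without the block. Their exact permutation p is 0.0286 by construction.

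**Figure D2:**
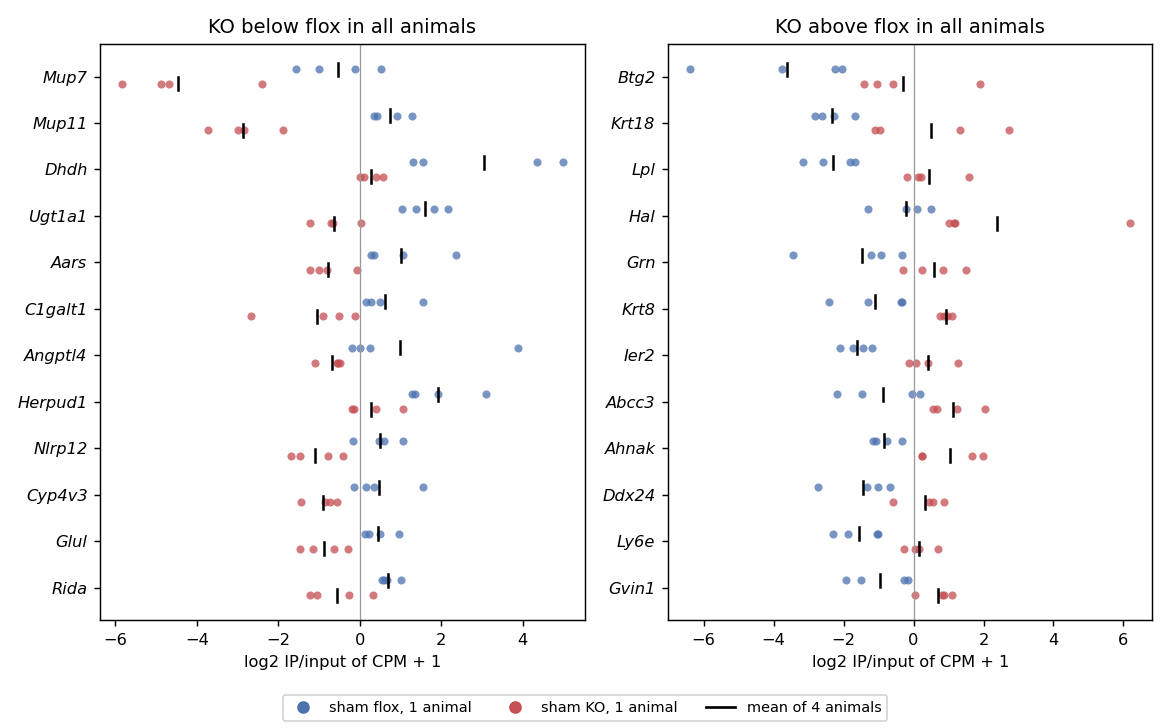
Log2 IP/input of CPM + 1 (horizontal axis) in each sham animal, for the 12 genes with the largest KO minus flox difference in each direction among those without overlap and with at least 10 counts in every library; points are animals and the line is the mean of 4. Differences ran from -3.91 (Mup7) to 3.32 (Btg2).

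Major urinary proteins, small lipocalins that the liver secretes to carry pheromones in urine, included 2 of the 23 genes with lower KO values, Mup7 and Mup11. Mup7 (chr4:60066469-60070475) had IP/input values of -1.56, -1.0, -0.11 and 0.51 in flox animals and -4.68, -5.83, -2.41 and -4.89 in KO animals. All KO animals lay below all flox animals, a difference of -3.91 (edgeR -4.16, adjusted p = 0.195). Mup11 (chr4:60658466-60662411) had 0.91, 0.43, 1.28 and 0.34 against -3.73, -1.88, -3.0 and -2.83. Its groups also did not overlap, a difference of -3.60 (edgeR -4.22 ± 1.21 SE, adjusted p = 0.182). Mup3 (chr4:62083476-62087342) had -0.19, 0.84, 0.71 and 0.98 against -1.67, -0.15, -1.30 and -2.43, so that KO animal 2 just exceeded flox animal 1 (edgeR -2.19, adjusted p = 0.167; -2.39 with the animal block, adjusted p = 0.0032).

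Each of these 3 Mup genes fell in the IP libraries, and each also had a lower mean in the input. Mup11 fell by 5.70 in IP (adjusted p = 0.0018), from 1179 to 25.7 CPM, with input means of 616 and 184 CPM and flox animal 3 highest in both libraries. Mup7 fell by 5.27 (adjusted p = 0.0194), from 341 to 9.65 CPM, with input means of 500 and 194 CPM. Mup3 fell by 2.72 (adjusted p = 0.000239), from 3211 to 511 CPM, with input means of 2271 and 1288 CPM. The Mup7 IP call was lost without flox animals 1 or 3 or KO animals 1, 2 or 4 (highest adjusted p = 0.156), and that of Mup11 without flox animal 3 (0.0587). All 10 Mup genes of the set were below 0 in edgeR, 4 of them at an unadjusted p under 0.05, and 0 passed the adjusted test, while DESeq2 called 2. In edgeR 2.20% of the genes compared and 14.8% of all genes tested had such an unadjusted p. DESeq2 called 7 of the genes compared and 17.8% of all genes with an adjusted p. Their median difference was -0.94 per animal and -1.84 to -0.94 over the scalings. The edgeR median of all genes compared was -0.33. Relative to the median of the genes compared, the Mup median was -1.36 in edgeR and -0.89 per animal. Mup genes are near-identical copies, so how reads were divided among them in the deposited counts is uncertain.

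In the IP libraries alone, 6 of the 2045 genes differed between KO and flox sham livers in edgeR: Serpina3k, Mup3, Mup7, Mup11 and Glul fell and Gstm3 rose (all genes tested: 0.0489% called, and 3.7% at an unadjusted p under 0.05). In the input libraries alone 0 of the 2045 genes passed in edgeR, while 0.119% of all genes tested were called. An unadjusted p under 0.05 was found in 43 of the 2045 genes (2.10%), against 20.3% of all genes tested. The number called in IP was 3 to 9 when 1 animal was left out (3 without flox animal 3), and 9 with DESeq2.

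Glul encodes glutamine synthetase, the enzyme that fixes ammonia in the hepatocytes around the central vein. Its IP/input value was 0.14, 0.50, 0.23 and 0.96 in flox and -1.16, -0.64, -1.47 and -0.28 in KO animals, without overlap, a difference of -1.34 (edgeR -1.83, adjusted p = 0.19). Its IP level fell by 2.04 (adjusted p = 0.0112), from 1236 ± 345 to 332 ± 136 CPM (SD, n = 4), while input means were 878 and 618 CPM. That IP call was lost without flox animal 4, KO animal 1 or KO animal 2 (highest adjusted p = 0.128), without the 77-day animals (0.127), with upper-quartile factors (0.0736) and with no filter on low counts (0.0628). Gstm3, a mu-class glutathione transferase of xenobiotic conjugation, was the 1 gene that rose in IP, by 3.84 (adjusted p = 0.0069), from 32.3 to 540 CPM. The 4 KO IP levels were 498, 115, 262 and 1285 CPM, and without KO animal 4 the IP difference was 3.09. Its IP/input values were 0.43, -2.55, -2.28 and -2.10 in flox and 1.22, 0.02, 1.24 and 1.77 in KO animals, and flox animal 1 overlapped the KO animals. The Gstm3 IP call was lost without flox animal 3 (adjusted p = 0.0585) or KO animal 4 (0.155) and without the 77-day animals (0.126).

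Fabp1, Angptl4 and Ugt1a1 were also among the 23 genes with lower KO values. Fabp1, the liver fatty acid binding protein and a PPARA target, had 1.52, 1.16, 1.76 and 1.32 in flox and 0.53, -0.77, 0.78 and 0.33 in KO animals. Every flox animal was above every KO animal, a difference of -1.23 (edgeR -1.64, adjusted p = 0.182), with IP means of 2636 and 1153 CPM and input means of 969 and 993 CPM. Angptl4, a secreted inhibitor of lipoprotein lipase, had 0.25, 0.00, -0.18 and 3.89 against -1.10, -0.54, -0.49 and -0.55. The difference was -1.66, and flox animal 4 stood far above the other 3; without it the difference was -0.69. Ugt1a1, which conjugates bilirubin to glucuronic acid, had 1.04, 2.17, 1.81 and 1.37 against -0.66, -1.21, 0.04 and -0.70, a difference of -2.23 without overlap. Its input means were 87.7 CPM in flox and 247 CPM in KO livers, and its IP means 252 and 150 CPM. Ugt1a genes share their last exons, so reads there cannot be given to one of them.

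For several genes with lower KO values the input side of the ratio was the larger part. Aars, the cytosolic alanyl-tRNA synthetase, had values of 0.35, 1.07, 0.28 and 2.37 against -1.22, -1.01, -0.80 and -0.06, with input means of 67.7 and 210 CPM and IP means of 138 and 128 CPM. Herpud1, a component of endoplasmic-reticulum-associated degradation, had 1.29, 1.92, 1.36 and 3.11 against -0.18, 1.06, 0.39 and -0.15, with input means of 76.7 and 212 CPM and IP means of 301 and 245 CPM. Dhdh, a dihydrodiol dehydrogenase, had 1.31, 4.35, 1.54 and 4.98 against 0.57, 0.10, 0.01 and 0.39. None of these inputs differed in the edgeR test. Over the 23 genes the IP part was the larger one in 12 and the input part in 11, with medians of -0.67 and 0.79. Over all 2045 genes the IP part was the larger in 34.5%, and the median absolute parts were 0.35 for IP and 0.66 for input. The remaining genes with lower KO values ranged from -3.69 (Golim4) to -0.60 (Cat, catalase) and included Cyp4v3, Rida, Aqp9, Egfr, Il1r1 and Nlrp12.

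Genes with higher KO values included immediate early genes, keratins and lipoprotein lipase. Btg2, an antiproliferative cofactor of mRNA deadenylation induced by growth signals, had -3.77, -2.25, -6.39 and -2.04 in flox and -1.42, 1.91, -0.60 and -1.04 in KO animals. The difference was 3.32 without overlap (edgeR 3.33, adjusted p = 0.195), with IP means of 21.6 and 213 CPM and input means of 276 and 228 CPM. Ier2, an immediate early nuclear protein, had -2.10, -1.45, -1.72 and -1.18 against 0.41, 1.26, -0.14 and 0.07, also without overlap. Jun, a subunit of the AP-1 transcription factor, had a difference of 1.59. Egr1, a zinc-finger immediate early factor, had -2.97, -2.83, -1.46 and -3.67 against 0.51, 1.76, -0.97 and -2.26, and KO animal 4 lay among the flox animals (edgeR 2.81, adjusted p = 0.192).

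Krt8 and Krt18, partners in the keratin filaments of hepatocytes and bile duct cells, were both in this group. Krt8 had -0.33, -0.36, -2.41 and -1.31 in flox and 1.09, 0.77, 0.97 and 0.87 in KO animals, and Krt18 had -2.63, -2.82, -1.66 and -2.26 against 2.72, -0.96, -1.10 and 1.32. Neither pair of groups overlapped, though those of Krt18 did with TMM-scaled CPM, and edgeR gave 1.63 (adjusted p = 0.436) and 2.32 (adjusted p = 0.476). Lpl, lipoprotein lipase, had -2.58, -1.68, -1.83 and -3.15 against 1.58, -0.19, 0.21 and 0.14, a difference of 2.74. Hal, histidine ammonia-lyase of histidine breakdown, had 0.51, -0.23, -1.30 and 0.11 against 1.01, 6.20, 1.18 and 1.15, and KO animal 2 stood far above the others. The Hal difference was 2.61, and 1.34 without that animal. Ly6e, a GPI-anchored surface protein induced by interferon, had -1.87, -1.04, -2.30 and -1.02 against 0.69, 0.05, -0.26 and 0.15. With TMM-scaled CPM, Btg2, Ier2, Krt8, Lpl, Hal and Ly6e stayed without overlap. The other genes with higher KO values ran from 4.96 (Nhsl1) to 0.68 (Agt, angiotensinogen) and included Grn, Abcc3, Ahnak, Cyp4a14, Foxa3 and H2-Q10. Over the 27 genes the median IP part was 1.09 and the median input part -0.77, and the IP part was the larger in 16.

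Summed levels of markers of other cells were also compared, and they did not all go the same way. The summed IP level of 12 stellate cell and fibroblast markers was 266 to 335 CPM in flox and 423 to 1084 CPM in KO animals, and that of 7 measured cholangiocyte markers 5.08 to 39.9 and 54.6 to 219 CPM. For 13 Kupffer cell and macrophage markers the ranges were 389 to 690 and 599 to 1153 CPM, with overlap. Endothelial markers (604 to 870 and 703 to 1174 CPM) and lymphocyte markers (0 to 43.2 and 24.8 to 75.5 CPM) also overlapped. Red cell markers tended the other way, with 52.6 to 110 CPM in flox and 32.4 to 65.2 CPM in KO animals, with overlap. Neutrophil markers were all at 0 in flox IP libraries and summed to 0.24 to 22.8 CPM in KO IP libraries, where S100a9 and Ly6g were at 0. In the inputs these ranges overlapped, with stellate sums of 275 to 731 and 445 to 806 CPM, Acta2 and Tagln at 0 in all 8, and cholangiocyte sums of 64.8 to 144 and 53.0 to 247 CPM. The part of these cells in the IP/input values was not tested. Of the stellate markers, 3 were in the set, and 0 of these had at least 10 counts in each of the 16 sham libraries. Among them Col3a1, a fibrillar collagen, had a difference of 3.79 (edgeR adjusted p = 0.334).

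**Figure D3:**
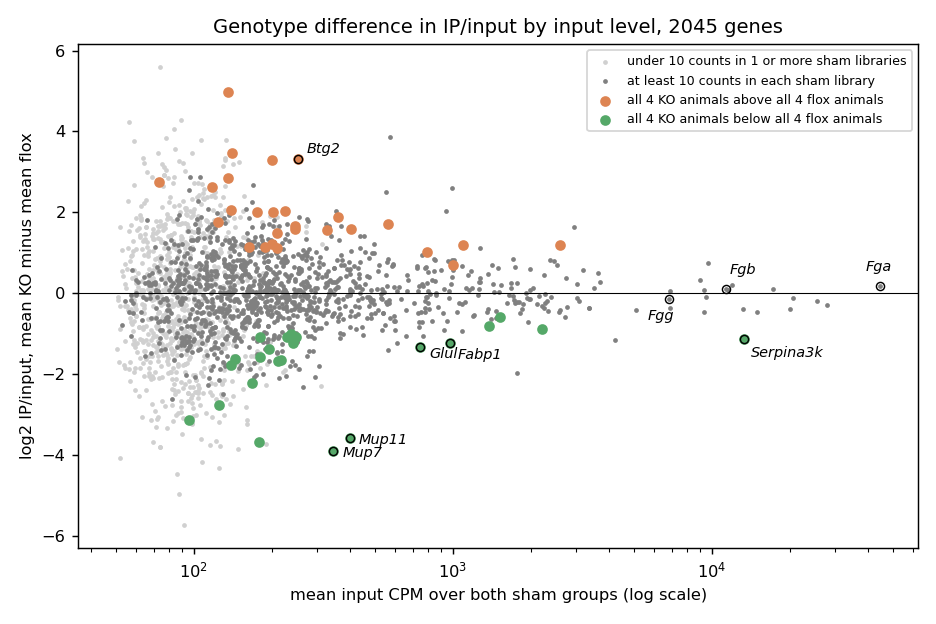
Mean KO minus mean flox log2 IP/input (vertical axis) against the mean input CPM over both sham groups (horizontal log axis) for the 2045 genes; coloured points are the 27 and 23 genes whose animals did not overlap and light grey points have under 10 counts in 1 or more sham libraries. Over 4 equal bins from the lowest to the highest input level, the median absolute difference was 0.91, 1.07, 0.74 and 0.45, and the share without overlap was 0.20%, 0.78%, 4.11% and 4.70% in the same order.

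Fga, Fgb and Fgg encode the secreted fibrinogen chains that assemble into the clot precursor. They are named in the title of the series, and their sham IP/input values overlapped between genotypes. Fga (chr3:83026076-83033627) had -0.71, -1.18, 0.03 and -1.16 in flox and -0.80, -0.60, 0.00 and -0.91 in KO animals, a difference of 0.18 (exact permutation p = 0.6). Its edgeR difference was -0.27 ± 0.28 (SE), adjusted p = 0.93, with input means of 44915 and 44651 CPM and IP means of 28195 and 30723 CPM. Fgb had -0.78, -1.08, -0.11 and -0.44 against -0.52, -0.19, -0.45 and -0.83, and Fgg -1.06, -1.03, -0.30 and -0.87 against -0.78, -0.25, -1.11 and -1.69. Their differences were 0.10 and -0.14, and -0.28 and -0.46 in edgeR (adjusted p = 0.88 and 0.724). The sign for Fga and Fgb was positive with library totals and DESeq2 and negative with TMM, so no direction was read. Of 19 clotting factors and inhibitors in the set, 0 passed the edgeR test and 0 had an unadjusted p under 0.05, with 0 called by DESeq2.

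Acute phase genes, whose secretion by hepatocytes changes in inflammation, numbered 23 in the set, of which 1 fell (Serpina3k) and 0 rose in edgeR. Their median difference was 0.38 per animal and -0.16 in edgeR, so its sign turned with the scaling. Orm2, an alpha-1-acid glycoprotein, had -5.91, -4.35, -5.04 and -0.03 in flox and 0.07, 0.87, -0.82 and 0.03 in KO animals. Flox animal 4 lay among the KO animals (edgeR 2.03, adjusted p = 0.361), and Orm2 passed the edgeR test once that animal was left out. Crp, C-reactive protein, had -0.41, -0.84, 0.33 and -0.21 against -1.67, -1.09, -0.54 and -2.13 (difference -1.08, edgeR adjusted p = 0.309), with 1 KO animal above the lowest flox animal.

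The serpin A1 and A3 clusters on chromosome 12 gave 10 genes, of which 1 fell and 0 rose. Serpina1e, one of the mouse alpha-1-antitrypsin copies, had -0.32, -0.46, 0.38 and -0.36 in flox and -2.18, 0.13, -0.95 and -2.41 in KO animals, and KO animal 2 lay among the flox animals. Its edgeR difference was -1.13 (adjusted p = 0.276), and -1.58 with the animal block (adjusted p = 0.000203), while the exact permutation p was 0.143. Serpina1c had an edgeR difference of -0.98 and Serpina1b of -0.63, neither of which passed, while Serpina3n had 0.05 per animal and -0.53 in edgeR. The list median was -0.30 per animal and -0.70 to -0.22 over the scalings. Copies in these clusters also share reads.

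Apolipoproteins, the protein part of lipoproteins, gave 12 genes with a median difference of -0.31 per animal and -0.73 to -0.31 over the scalings. In edgeR 0 passed and 11 of the 12 were below 0, 2 at an unadjusted p under 0.05 (2.20% of the genes compared, 14.8% of all genes tested). The edgeR median of all genes compared was also below 0, at -0.33. Relative to the median of the genes compared, the apolipoprotein median was -0.4 in edgeR and -0.26 per animal. Apoa1, the main protein of high-density lipoprotein, had 0.22, 0.21, 0.12 and -0.17 in flox and -0.61, -0.30, 0.22 and -0.74 in KO animals. KO animal 3 lay within the flox range, and the exact permutation p was 0.114. The edgeR difference was -0.81 (adjusted p = 0.19), and -0.86 with the animal block (adjusted p = 8.21e-09). Apob, the scaffold of very-low-density lipoprotein, had 0.39, 0.05, 0.16 and -0.45 against -0.12, 0.14, 0.24 and -0.89, with overlap (exact permutation p = 0.571). Its edgeR difference was -0.53 (adjusted p = 0.412), and -0.59 with the block (adjusted p = 1.36e-08).

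All 13 mRNAs of the mitochondrial genome, which encode respiratory chain subunits and are made outside the nucleus, were in the set. In edgeR 0 passed, all 13 were below 0 and 6 had an unadjusted p under 0.05. Such a p was found in 2.20% of the genes compared and 14.8% of all genes tested. The median difference was -0.30 per animal and -0.70 to -0.27 over the scalings, with mt-Nd1 the 1 gene above 0 per animal. The edgeR median of all genes compared was itself -0.33, so a value below 0 is not by itself a fall relative to them. Relative to the median of the genes compared, the list median was -0.33 in edgeR and -0.25 per animal. mt-Cytb had 1.02, 0.59, 0.26 and -0.33 in flox and 0.44, -0.36, 0.22 and -0.38 in KO animals, with wide overlap. Its edgeR difference was -0.82 (adjusted p = 0.182), and -0.81 with the animal block (adjusted p = 1.04e-07). For mt-Nd4 and mt-Nd5, also called with the block, the exact permutation p was 0.257 and 0.371. These 13 genes are cut from a few long precursor transcripts and are not independent of each other. The share of all counts on mitochondrial genes was 8.87% to 15.8% in flox IP and 7.95% to 14.4% in KO IP libraries.

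Metabolic and other housekeeping groups of liver gave no call in the edgeR test. Of 27 cytochromes P450, which oxidise drugs and steroids, 1 was without overlap in each direction (Cyp4a14 higher, though not with TMM-scaled CPM, and Cyp4v3 lower). Cyp2e1, the ethanol-oxidising P450 of pericentral hepatocytes, had -0.06, 0.61, 0.50 and 1.07 against 0.21, 0.43, -0.42 and 0.13, with overlap (edgeR -0.85, adjusted p = 0.338). The P450 median was -0.22 per animal and -0.62 to -0.12 over the scalings. Cholesterol synthesis and uptake genes (12) had a median of -0.44, and bile acid genes (19) of -0.22, and both stayed below 0 under each scaling. So did the medians of gluconeogenesis and fatty acid synthesis genes, and that of the 12 hepatocyte markers (-0.44 to -0.04). The edgeR median of all genes compared was itself -0.33. Relative to it, the edgeR medians were -0.43 (cholesterol), -0.22 (bile acid), -0.16 (gluconeogenesis) and -0.2 (fatty acid synthesis). Per animal, relative to the median of the genes compared, they were -0.39, -0.17, -0.06 and -0.26 in the same order. The cholesterol genes split into 6 above and 6 below 0 per animal, and 5 of the 12 had at least 10 counts in every sham library. Medians of amino acid breakdown (33 genes, 0.17), fatty acid oxidation (24 genes, 0.13), complement (18 genes, 0.21), iron and metal handling (17 genes, 0.51) and cytosolic ribosomal proteins (31 genes, 0.21) were above 0 per animal and turned below 0 with TMM in edgeR. DESeq2 called Gstm3 and Ugt1a1 among conjugation genes and 0 in the other groups of this paragraph. At an unadjusted p under 0.05 edgeR gave 3 conjugation genes (Gstm3, Ugt1a1 and Gstz1) and 1 P450. It also gave 1 gene each of gluconeogenesis and fatty acid oxidation, and the 1 amino acid breakdown gene was again Gstz1. The share at such a p was 2.20% of the genes compared and 14.8% of all genes tested.

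Immediate early and stress genes, 28 in the set, had no common direction, with 14 above and 14 below 0 per animal. Of these, 3 were higher and 1 lower in KO animals without overlap (Btg2, Ier2 and Jun, and Herpud1), beside 1.84% and 1.01% of all genes tested. With TMM-scaled CPM the Jun groups overlapped. The list median was -0.10 per animal and -0.60 in edgeR, and edgeR called 0 while DESeq2 called Btg2 and Egr1 higher. In edgeR Pdia4, a disulfide isomerase of the endoplasmic reticulum, was at -1.09 (adjusted p = 0.273) and Calr, the chaperone calreticulin, at -0.73 (adjusted p = 0.336), neither past the threshold.

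**Figure D4:**
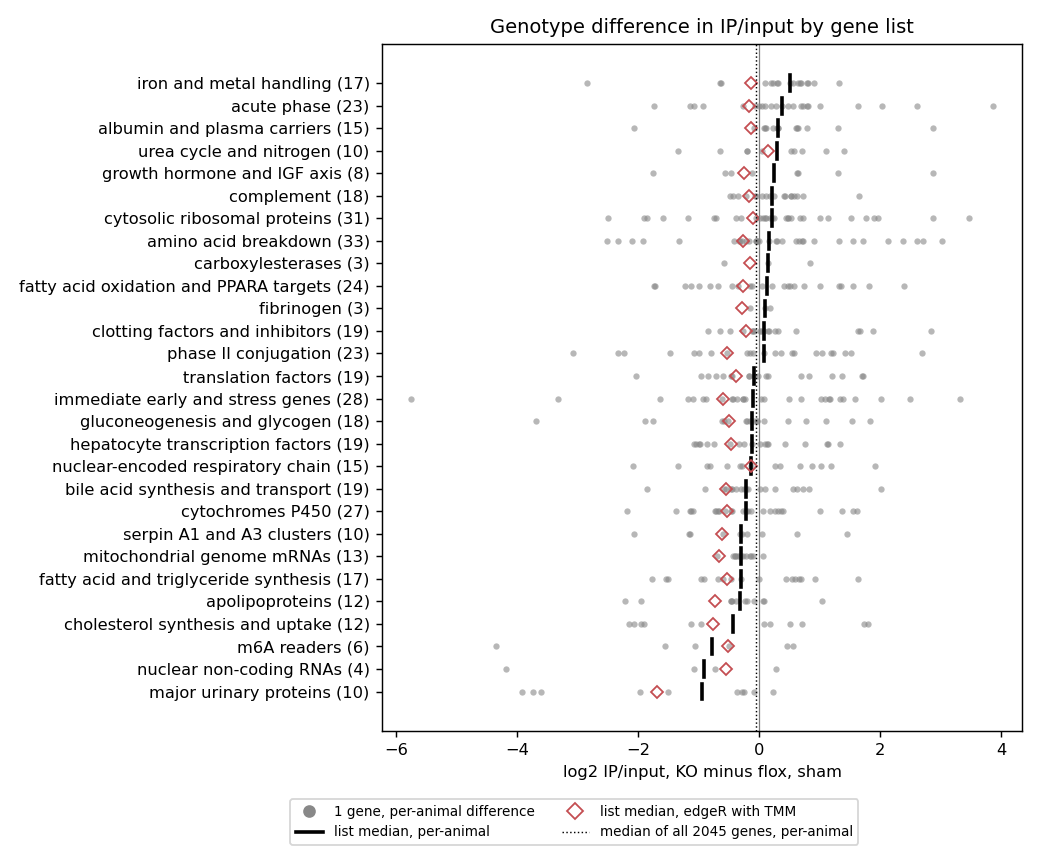
KO minus flox log2 IP/input in sham livers (horizontal axis) for each gene of the named lists (grey points, number of genes in brackets), with the list median per animal (black bar) and in edgeR with TMM (open diamond); the dotted line is the median of all 2045 genes, -0.05. The diamond lies left of the bar in most lists, and the 10 major urinary proteins have the lowest edgeR median, -1.69.

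Of the m6A machinery itself, Zc3h13, a subunit of the writer complex, was the 1 writer or eraser gene in the set, with a difference of 0.02. The 6 reader genes had a median of -0.78 per animal, -0.51 in edgeR and -1.17 to -0.11 over the scalings. Relative to the median of the genes compared, the reader median was -0.18 in edgeR and -0.73 per animal. Of the 6 genes, 4 had at least 10 counts in every sham library. None was called by edgeR, DESeq2 or the block, and 0 had an unadjusted p under 0.05. Ythdc1, the nuclear reader, had 0.58, 6.01, -0.51 and 6.72 in flox and -0.09, -1.71, -1.51 and -1.25 in KO animals. The high values came from flox animals 2 and 4. Malat1, a nuclear long non-coding RNA known for its m6A sites, had 0.13, 0.00, 0.17 and -0.04 against 0.66, 0.18, 0.62 and -0.10, with overlap, and its sign turned with the scaling (0.28 per animal, -0.11 in edgeR). Kcnq1ot1, an antisense long non-coding RNA of the imprinted Kcnq1 locus, had -1.50, 6.06, 5.84 and 6.15 against 0.44, -1.72, 0.34 and 0.78. It passed the edgeR test only in the fits without flox animal 1 or without the 77-day animals, and with an antisense gene the reads of both strands may not be told apart.

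Gene structure had little relation to the genotype difference. Across the 2045 genes, which are not independent replicates and share the libraries, Spearman's rho of the difference was -0.03 with transcript length, -0.04 with the longest internal exon block, 0.02 with the number of exon blocks and 0.05 with the input level. The IP/input value itself was related to the input level, with rho of -0.33 in flox and -0.32 in KO animals, a quantity that stands on both sides of that comparison. The mean IP/input values of flox and KO animals had a rho of 0.29 across genes.

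In hepatectomised animals, a separate set of 8 mice, the same contrast called 1 of the 2045 genes higher and 41 lower in edgeR (all genes tested: 0.00698% and 0.705%). The median per-animal difference was -0.58, and 66.5% of the 2045 genes were below 0. Of the 23 genes below without overlap in sham livers, 21 were below 0 after hepatectomy (median -1.54), and of the 27 above, 18 were below 0 (median -0.50). In 8 genes KO animals lay below flox animals without overlap after both surgeries: Serpina3k, Mup7, Mup11, Glul, Ugt1a1, Aqp9, Egfr and Nlrp12. These were 34.8% of the 23 sham genes and 7.69% of the 104 hepatectomy genes. In the other direction there was 0 of 27 and 0 of 40. Among all genes tested, 3.41% were lower and 0.879% higher without overlap after hepatectomy.

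Serpina3k fell after hepatectomy as well, from 0.27, 0.06, 0.45 and 0.64 in flox to -1.42, -0.89, -1.88 and -0.92 in KO animals (edgeR -2.19, adjusted p = 3.78e-07). The difference between surgeries was -0.84 and did not pass (adjusted p = 0.273). Fga passed after hepatectomy (edgeR -1.98, adjusted p = 7.32e-06) and not in sham livers, and its interaction of -1.71 fell short of the threshold (adjusted p = 0.0536).

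The test of the interaction itself called 2 of the 2045 genes, both lower (all genes tested: 0.0419% called, 0.0349% lower). After hepatectomy Serpina1e had -0.19, -0.15, -0.34 and 0.04 in flox animals and -3.86, -4.37, -6.21 and -3.13 in KO animals, so that its genotype difference was larger than in sham livers (interaction -3.42, adjusted p = 0.0406). That call was lost without KO animal 2 (adjusted p = 0.126), flox animal 2 (0.0677) or flox animal 4 (0.0552), and with upper-quartile factors (0.0933) or the 2045 genes alone (0.268). Sdf4, a calcium-binding protein of the Golgi lumen, was listed at 0 in all 4 hepatectomised flox inputs and had 70.1 to 181 CPM in their IP libraries. Its fitted interaction of -14.89 (adjusted p = 0.0134; 0.179 with the animal block) depends on those zeros and is no bound on a fold change. The animal block raised the number of interaction calls from 2 to 15 (all genes tested: 0.105%), and DESeq2 to 22 (22.8%).

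**Figure D5:**
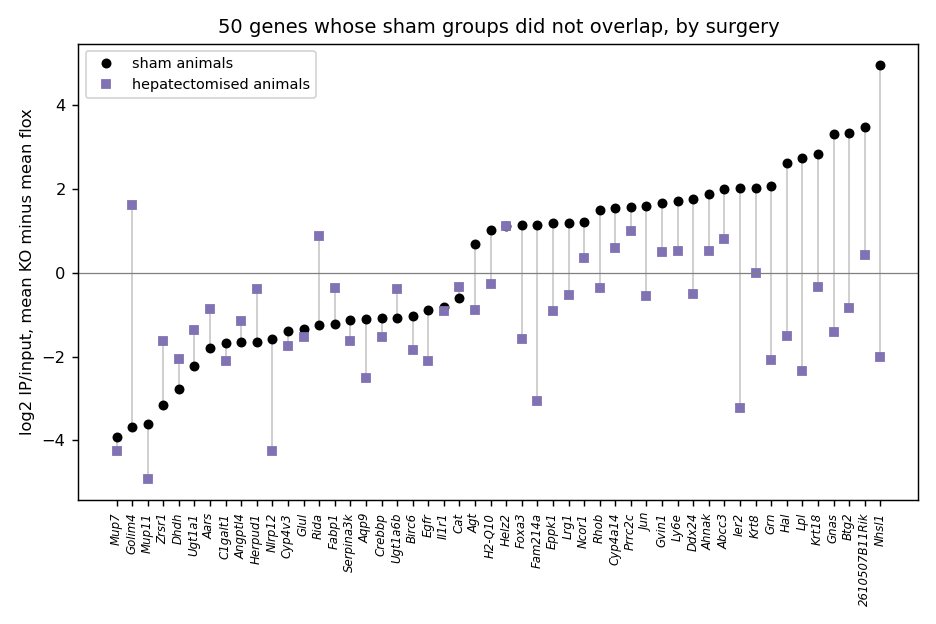
Mean KO minus mean flox log2 IP/input (vertical axis) for the 50 genes whose sham animals did not overlap, in sham animals (black circles) and in hepatectomised animals (violet squares). Of the 23 genes below 0 in sham animals 21 are below 0 after hepatectomy, as are 18 of the 27 genes above 0 in sham animals.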

How the data were processed

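Liver RNA of 16 mice was sequenced as input and m6A-IP libraries. The authors deposited estimated counts (the expected count unit) per gene, made by aligning reads and counting them by gene without scaling between libraries, with 1.33% to 8.22% of values in a library not whole, and these were rounded here. Per the submitters' processing notes, fastp and STAR were used. What versions, counter, annotation, strand setting and genome build were chosen is not given in the sources used here. Of the gene starts, 13290 equal those of RefSeq GRCm38.p6, which served for names, 34368 genes in all with 94.8% of counts.

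The fit was edgeR 4.0.16 in R 4.3.3 on all 32 libraries with 1 coefficient per group, TMM factors, filterByExpr (minimum count 10), quasi-likelihood tests and Benjamini-Hochberg adjusted p-values, threshold 0.05. The contrast was KO minus flox of IP minus input in sham animals. Per-animal values used CPM by library total and a pseudocount of 1 CPM. Single genes were also tested by exact permutation over 4 against 4 animals. For a library listed at 0 the floor is 3 counts. That floor covers counting error only, since PCR copies are not separate molecules. Scripts were tested on simulated counts with known changes in IP/input between sham KO and flox. At the spread of these libraries, edgeR recovered 1% of genes given a log2 change of 2 and 17% given 4. At a low spread it recovered 100% of both.

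The input and IP library of a number are from 1 animal, so the numbers pair libraries within a group. The correlation of their deviations over 1224 genes was -0.09 to 0.11 (median 0.00), and 2 of 8 inputs matched their own IP library best. Flox and KO animals are not paired with each other. The labels do not say more about how the animals were kept, so p-values cover no more than the spread between these animals. Those of the block fit can lie far below the exact ones (Apoa1, adjusted p = 8.21e-09 against an exact permutation p of 0.114). They are not read as a measure of that spread.

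The genes compared and the gene lists were chosen with earlier results of these data known. Named genes were Mettl14 and fibrinogen, genes past the threshold, up to 12 each way with the largest difference without overlap and at least 10 counts in every sham library, the 8 with the highest input, and up to 4 per list with the smallest p. Others were named after their values were seen where a count was spelled out. Alternatives were DESeq2 1.42.0, limma 3.58.1 on per-animal ratios, other scalings and filters, the animal as a block, and leaving out animals. Genes of the table without a symbol were not used in lists. The reference used here holds no transcript sequences, and none is printed.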

Additional observations from a re-analysis of the deposited data

Results flagged for a closer look

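Among 214 groups of 4 sham values of named genes, 17 had 1 animal past Dixon's 95% critical value, where chance flags about 1 in 20 groups. Dixon's ratio is the gap to the nearest other animal divided by the range of the 4 values, so a small gap can pass in a tight group. Flox animal 1 and KO animal 2 held 4 each. In flox livers the IP/input value of animal 1 stood apart for Serpina3k (0.88, against 0.54 to 0.57), Gstm3 (0.43), Ces1c (-1.02) and Kcnq1ot1 (-1.50). Animal 2 stood apart for Ces3b (8.20) and Rpl10 (6.85), animal 3 for Gstt1 (6.43), and animal 4 for Angptl4 (3.89), Apoc1 (0.39) and Rps3a1 (7.67). In KO livers animal 1 stood apart for Angptl4 (-1.10) and Ces3b (6.83), animal 2 for Hal (6.20), Serpina1c (0.48), Slc27a2 (0.36) and Ehhadh (2.58), and animal 3 for Onecut2 (-0.15).

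The genotype difference in IP/input differed between sham and hepatectomised animals by the interaction test in Sdf4 (-14.89, a fitted value over inputs listed at 0) and in Serpina1e (-3.42).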

How the results depend on the processing

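The number of the 2045 genes past the threshold was 1, and 0 with library totals, upper-quartile factors, the 2045 genes alone or limma on ratios, 7 with DESeq2, 10 without the filter, 11 with the animal as a replicate block in edgeR, 3 without the 2 flox animals aged 77 days, and 1 to 4 with 1 animal left out (2 without flox animal 1, flox animal 2 or KO animal 1, 4 without flox animal 4). Over all genes tested it was 3, and 1 with library totals, 2483 with DESeq2, 31 without the filter, 8 with the 16 sham libraries, 12 with the block, 0 with limma, and 1 to 6 with 1 animal left out. With the block mt-Nd2 (-0.53), mt-Nd4 (-0.80) and mt-Nd5 (-0.70) also passed, and it changed no other call of a named gene than these and those given in the comparison. The median log2 difference of -0.33 was 0.067 with library totals, -0.21 with upper-quartile factors, 0.054 with DESeq2, -0.44 with the block, -0.05 with limma and -0.45 to -0.28 with 1 animal left out. The per-animal median of -0.05 was -0.43 with TMM-scaled CPM, 0.013 with at least 10 counts everywhere, 0.014 without the 77-day animals and -0.16 to 0.034 with 1 animal left out. The count of 50 genes without overlap (2.44%, against 2.85% of all genes tested) was 274 without the 77-day animals (13.4%, against 11.9%). With 1 animal left out it was 82 to 121 (4.01% to 5.92%, against 4.7% to 6.8%). Fewer animals overlap less. The count was 69 with TMM-scaled CPM (3.37%, against 2.91%). Limits of 20 and 100 CPM gave 74 (1.88%) and 39 (3.63%), and at least 10 counts everywhere gave 46 (3.76%), each against 2.85%. Both other pseudocounts gave 50 (2.44%, against 2.78% and 3.02%). The 6 IP calls became 10 without the filter and 3 to 9 with 1 animal left out, a check added after the data had been seen, as were the interaction fits of single genes and the scaling of list medians. Interaction calls rose from 2 to 22 with DESeq2 and 15 with the block.

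Of 107 named genes, 10 reversed sign in some fit and none of them was called. With library totals Fga was 0.13, Fgb 0.10, Alb 0.18, Ttr 0.083, Ces3a 0.21, Hp 0.012 and Malat1 0.28. With DESeq2 Fga was 0.10, Fgb 0.07, Alb 0.18, Ttr 0.065, Ces3a 0.20 and Malat1 0.26. With limma on ratios Fga was 0.18, Fgb 0.10, Alb 0.10, Ttr 0.12, Ces3a 0.15, Hp 0.20 and Malat1 0.28, and with upper-quartile factors Malat1 was 0.029. Without the 77-day animals Ces1c was -0.07 and Ehhadh -0.04. With 1 animal left out Fga ranged from -0.44 to 0.04, Alb from -0.80 to 0.20, Tat from -0.85 to 0.041, Malat1 from -0.33 to 0.035 and Ces1c from -0.47 to 0.77. For these changes the cause was not tested. The other edgeR values of named genes kept direction and side of the threshold in 1754 cases, 29 passed it newly and 6, all of Serpina3k, lost it. Of all 2045 genes compared, 564 were at 0 in 1 or more of the 8 sham inputs, and the part of depth in this was not tested.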
